A study of Mus musculus with 2 samples.

Results

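The genes described here are 10 genes of MHC class II antigen presentation: H2-Aa, H2-Ab1, H2-Eb1, H2-DMa, H2-DMb1, H2-DMb2, H2-Oa, H2-Ob, Cd74 and Ciita. They were chosen by symbol, and each matched 1 of the 31053 genes in the deposited single-cell matrices. The cells were washed from the peritoneum of animals 10 to 14 weeks old, 3 days after each had received 1 mg of zymosan, particles of yeast cell wall that set off a peritonitis without living microbes. One library, Cd36-/-, came from the strain LysM-Cre (x) floxed CD36, in which Cre is driven by the lysozyme M locus of macrophages, monocytes and neutrophils. The other, fl/fl, came from the strain floxed CD36, whose label names no Cre, so that loss of Cd36 and presence of Cre cannot be told apart. Each library was made from a pool of 4 replicates. With 1 library per group no difference has a replicate check, no test was possible, and all intervals are 95% intervals that cover counting error only.

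MHC class II molecules carry peptides from endosomes to the cell surface, where helper T cells read them. H2-Aa with H2-Ab1, and H2-Eb1 with its own alpha chain, form the presenting dimers, and the invariant chain Cd74 guides these dimers to endosomes and fills their groove on the way. H2-DMa pairs with H2-DMb1 or H2-DMb2 into H2-DM, which exchanges the remnant of Cd74 for peptide, and H2-Oa with H2-Ob form H2-O, which inhibits H2-DM. Ciita is the coactivator on which transcription of these genes depends. It is active without stimulus in B cells and dendritic cells, and interferon-gamma induces it in macrophages. Ciita binds no DNA itself and is recruited by factors on promoter elements named the X and Y boxes.

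The promoter sequences are shown because Ciita is recruited through the X and Y boxes. All members but Ciita and Cd74 lie within 1 stretch of chromosome 17 in GRCm38, from H2-Oa (chr17:34092340-34095234) through H2-DMa (chr17:34119541-34139101), H2-DMb2 (chr17:34143307-34151555), H2-DMb1 (chr17:34153072-34160230), H2-Ob (chr17:34238903-34254414), H2-Ab1 (chr17:34257689-34269419) and H2-Aa (chr17:34282744-34287823) to H2-Eb1 (chr17:34305867-34316674). H2-Aa is on the minus strand and the others are on the plus strand. RefSeq promoter windows of GRCm38.p6 (250 bases before to 50 after a start) were at hand for 7 members, and 6 of them held the letters CNNNNAAC followed 15 to 30 bases later by GATTGG. These stretches, 5′ to 3′ on the strand of the gene, have both boxes in capitals. They run over chr17:34287861-34287913 for H2-Aa, chr17:34305767-34305818 for H2-Eb1, chr17:34153088-34153140 for H2-DMb1, chr17:34145117-34145169 for H2-DMb2, chr17:34092294-34092346 for H2-Oa and chr17:34238809-34238858 for H2-Ob.
H2-Aa: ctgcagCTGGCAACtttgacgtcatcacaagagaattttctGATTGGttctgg
H2-Eb1: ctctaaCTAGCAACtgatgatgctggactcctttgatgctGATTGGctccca
H2-DMb1: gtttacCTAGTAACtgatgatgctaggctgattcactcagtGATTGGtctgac
H2-DMb2: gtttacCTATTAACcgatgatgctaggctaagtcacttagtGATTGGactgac
H2-Oa: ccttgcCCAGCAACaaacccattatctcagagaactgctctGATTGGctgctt
H2-Ob: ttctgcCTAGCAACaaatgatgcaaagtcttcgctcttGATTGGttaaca

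The boxes lay 24 to 27 bases apart in all 6, and the second box lay 44 to 91 bases before the RefSeq start. The letters were chosen after the windows had been read, were searched on both strands, and occurred as a spaced pair in 262 of 32851 windows (0.798%). GATTGG alone, which the pair includes, occurred in 16.1% of windows, and CNNNNAAC alone in 81.6%. H2-DMa has 2 windows and neither held the pair. H2-DMb1 and H2-DMb2, whose boxes sit in much the same sequence, were counted mainly in different cells, as described below.

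After filtering, 14899 Cd36-/- and 13846 fl/fl cells remained, and their medians were 6547 and 6863.5 unique molecular identifiers (UMIs, each standing for 1 captured RNA molecule). The libraries shared 383 barcodes (2.32% and 2.47% of theirs). Cells were clustered without the 10 members, so that their levels did not shape the clusters, and clusters were named from markers that include no member. Each name means "like". Cd36 itself, the targeted gene, was at 171.7 CPM (UMIs of the gene per 1000000 UMIs of the cell group) in Cd36-/- and 243.3 CPM in fl/fl macrophages, a log2 ratio of -0.50 (-0.53 to -0.47), and 3′ UMIs need not lie in the deleted part. 13 named groups had at least 50 cells in each library. Macrophages formed 7 of them: clusters led by Retnla with Cx3cr1 and Ccr2, by Folr2, and by Chil3 (with the monocyte marker Hp among its leading genes), a cycling cluster low in Gata6, and 3 clusters of large peritoneal macrophages (LPM, the Gata6-dependent resident type) led by Marco, by Alox15 and by cell cycle genes. The others were B-1, B-2, T and natural killer (NK) cells, type 2 conventional dendritic cells (cDC2) and neutrophils.

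The presenting chains and Cd74 spanned a wide range, with cDC2 at the top and LPM and NK cells at the bottom in both libraries. H2-Aa, the alpha chain of H2-A, was at 11206 CPM in Cd36-/- and 12295 CPM in fl/fl cDC2. It was at 7119 and 7475 CPM in Retnla macrophages, at 4496 and 4015 CPM in B-2 cells and at 3523 and 3044 CPM in B-1 cells. Folr2 macrophages had 1822 and 1635 CPM, Chil3 macrophages 1817 and 1409 CPM, and the cycling Gata6-low cluster 1038 and 923.7 CPM. The order of these 7 groups was therefore the same in both libraries, and Folr2 and Chil3 macrophages were close to each other in the Cd36-/- library only.

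Marco LPM had 274.7 and 230.1 CPM of H2-Aa and Alox15 LPM 187.8 and 199.2 CPM. NK cells, which should lack the gene, had 288.5 and 282.2 CPM. In CPM, H2-Aa in these LPM was thus at or below its level in a cell type without class II. NK cells were shallower, with median depths of 2177 and 2498 UMIs against 7026 and 7613 UMIs over all LPM. Equal CPM therefore means fewer member UMIs in an NK cell than in an LPM. For the sum of all 10 members, Marco LPM had 1754 CPM (1735 to 1773) in Cd36-/- against 1799 CPM (1726 to 1874) in NK cells, and 1452 CPM (1434 to 1470) in fl/fl against 1760 CPM (1677 to 1846). Cycling LPM had 1870 CPM (1815 to 1926) and 1213 CPM (1175 to 1253), and in Cd36-/- its interval overlapped that of NK cells. The NK level itself included cells with B cell RNA. Without cells with 2 or more UMIs of B cell markers, the sum was 1455 and 1363 CPM in NK cells, 1618 and 1390 CPM in Marco LPM, 1833 and 1043 CPM in cycling LPM and 1121 and 1220 CPM in Alox15 LPM. Marco LPM and Cd36-/- cycling LPM then lay above NK cells, so LPM are described only as near the NK level in CPM. Whether LPM exceed the background per cell was not tested.

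**Figure D1:**
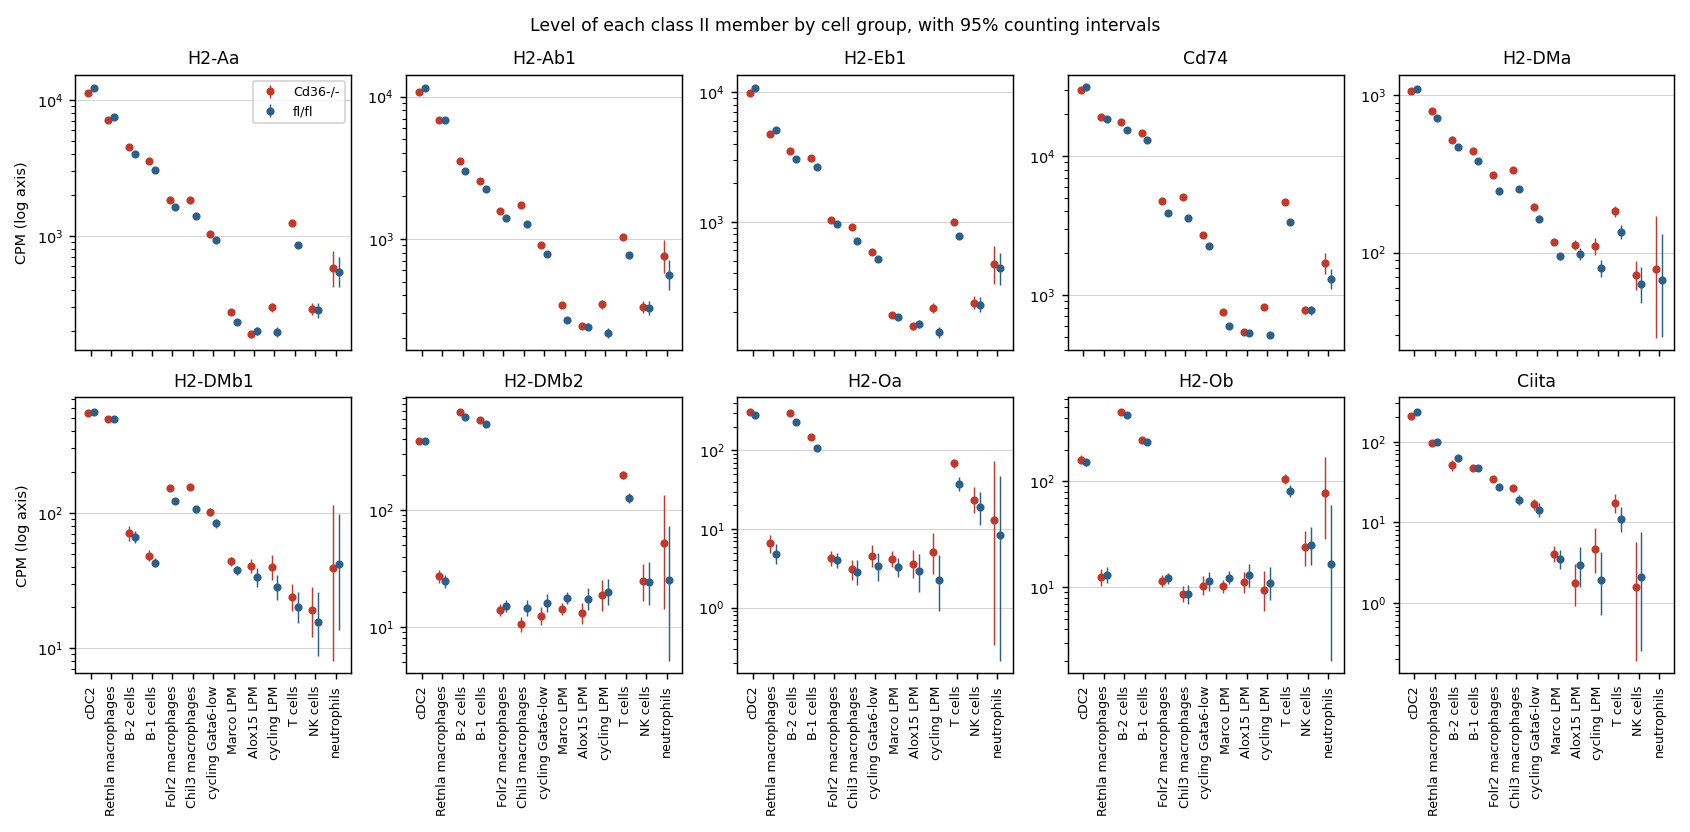
Level of each member (CPM on a log axis) in the 13 cell groups, with 1 point per library and bars for exact 95% Poisson intervals of counting. The presenting chains, Cd74, H2-DMa and Ciita fall from cDC2 to LPM, while H2-DMb2, H2-Oa and H2-Ob are high in B cells and cDC2 and low in every macrophage cluster. Ciita had no UMI in neutrophils and has no point there.

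H2-Ab1, the beta chain of H2-A, followed its partner closely. H2-Ab1 made up 49.1% and 48.5% of the H2-Ab1 and H2-Aa UMIs in cDC2, 49.0% and 48.0% in Retnla macrophages, and 42.9% and 42.7% in B cells. H2-Eb1, a beta chain of H2-E, made up 47.0% of the H2-Eb1 and H2-Aa UMIs of cDC2 in both libraries, 46.0% and 45.9% in B cells, but 40.1% and 40.7% in Retnla macrophages. H2-Eb1 was therefore lower beside H2-Aa in macrophages than in B cells or cDC2. Its own alpha chain gene was not among the genes of the matrices under the symbols H2-Ea or H2-Ea-ps, so no level of it can be given. Cd74 (chr18:60803848-60812652) made up 80.4% and 80.5% of the Cd74 and H2-Aa UMIs in B cells, against 72.8% and 71.8% in cDC2 and 72.7% and 71.3% in Retnla macrophages, so B cells carried more invariant chain RNA per H2-Aa RNA. These shares compare the mix of 2 genes between cell groups and not the levels of the genes, since capture at the 3′ end differs between genes.

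The H2-DM beta chain genes divided between lineages. H2-DMb1 was at 498.6 CPM in Cd36-/- and 491.7 CPM in fl/fl Retnla macrophages, against 27.1 and 24.7 CPM of H2-DMb2. In B-1 cells it was the reverse, with 48.4 and 42.8 CPM of H2-DMb1 against 588.5 and 543.7 CPM of H2-DMb2. H2-DMb2 thus gave 91.9% of the H2-DMb1 and H2-DMb2 UMIs of B cells in each library (91.3 to 92.5 in Cd36-/- and 91.5 to 92.4 in fl/fl), but 5.16% (4.55 to 5.83) and 4.79% (4.21 to 5.43) in Retnla macrophages.

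Folr2 macrophages lay near the Retnla cluster, with H2-DMb2 shares of 8.46% and 11.02%, and Chil3 macrophages had 6.37% and 12.1%. cDC2 stood between both lineages, at 41.6% (39.6 to 43.5) and 41.2% (39.7 to 42.8), with 544.6 and 554.2 CPM of H2-DMb1 and 387.3 and 388.8 CPM of H2-DMb2. Type 1 conventional dendritic cells (cDC1), with only 38 and 34 cells, had H2-DMb2 shares of 10.1% (7.13 to 13.9) and 12.6% (9.65 to 16.1), closer to macrophages than to cDC2. The cDC2 cluster also held 1247 and 1064 CPM of summed B cell markers, against 157.3 and 183.1 CPM in Retnla macrophages. Without the 106 and 163 cells that had 2 or more UMIs of these markers, cDC2 still had 332.3 and 378.1 CPM of H2-DMb2 beside 647.0 and 619.6 CPM of H2-DMb1.

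**Figure D2:**
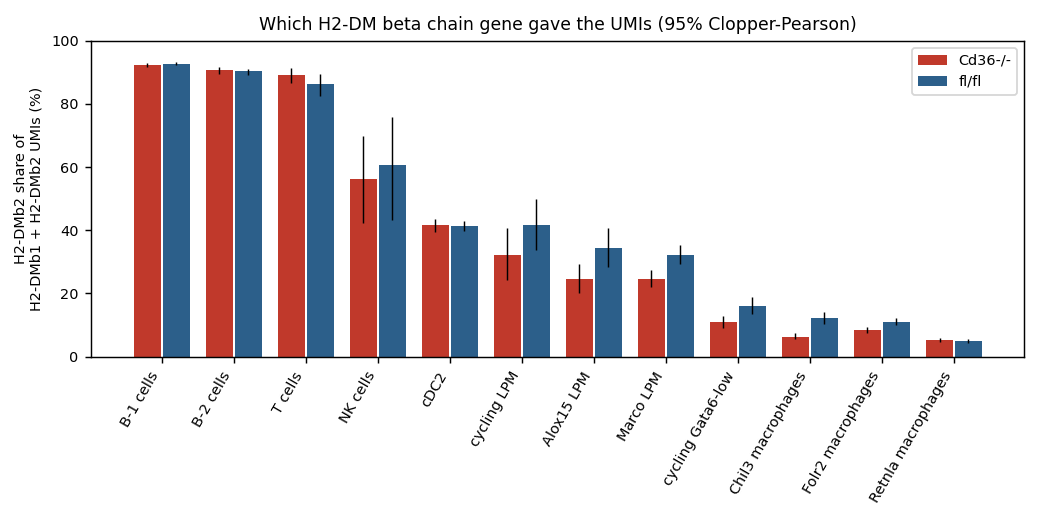
Share of H2-DMb2 among the UMIs of H2-DMb1 and H2-DMb2 (%) by cell group and library, with exact 95% Clopper-Pearson intervals. B-1, B-2 and T cells lie above 80% (T cells without cells with 2 or more UMIs of B cell markers had only 17.04 and 12.1 CPM of H2-DMb2 beside 13.6 and 7.16 CPM of H2-DMb1), cDC2 near 41%, and the Retnla, Chil3 and Folr2 macrophages at 12.1% or below.

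H2-DMb1 and H2-DMb2 are near copies, and 31.5% of the 31-base words in the last 400 bases of H2-DMb1 transcripts also occur in H2-DMb2. Reads in such words could be assigned to either gene or dropped, and the rule used for that is not given in the sources used here. H2-DMa, their alpha chain partner, followed the presenting chains, from 1062 and 1096 CPM in cDC2 and 791.0 and 723.1 CPM in Retnla macrophages down to 441.4 and 381.9 CPM in B-1 cells and 117.2 and 94.7 CPM in Marco LPM. In Marco LPM, H2-DMa was above its level in NK cells (72.1 and 62.9 CPM). H2-DMa overlaps Brd2 on the other strand, and whether counting used the strand is not given in the sources used here, so its reads may include some of Brd2. The same holds for H2-Oa with BC051537, H2-Eb1 with Gm20513 and Ciita with Dexi.

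The H2-O chains were highest in B cells and dendritic cells. H2-Oa was at 300.8 and 230.0 CPM in B-2 cells, 149.5 and 108.3 CPM in B-1 cells, and 306.7 and 280.5 CPM in cDC2. H2-Ob was at 450.5 and 426.7 CPM in B-2 cells, 248.9 and 237.4 CPM in B-1 cells, and 160.7 and 151.3 CPM in cDC2. B-2 cells therefore had more of both chains than B-1 cells in each library, and cDC2 had relatively less H2-Ob: it made up 34.4% and 35.0% of the H2-Ob and H2-Oa UMIs there, against 61.4% and 67.1% in B cells.

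None of the 7 macrophage clusters had H2-O chains above their level in NK cells. Retnla macrophages, with class II levels above those of B cells, had 6.59 CPM (5.02 to 8.50) and 4.84 CPM (3.55 to 6.46) of H2-Oa and 12.4 and 13.2 CPM of H2-Ob. NK cells had 23.8 and 18.9 CPM of H2-Oa and 23.8 and 25.2 CPM of H2-Ob. Over all macrophages, H2-Oa made up 1.46% and 1.41% of the H2-Oa and H2-DMa UMIs, against 28.5% and 25.2% in B cells and 22.4% and 20.4% in cDC2.

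Ciita (chr16:10480059-10528418, plus strand), the regulator of the set, was ordered like the presenting chains. It was at 211.4 CPM (194.3 to 229.7) and 233.0 CPM (218.4 to 248.4) in cDC2, 97.2 and 100.4 CPM in Retnla macrophages, 51.1 and 62.4 CPM in B-2 cells, and 47.3 and 47.7 CPM in B-1 cells. Folr2 macrophages had 34.9 and 27.6 CPM and Chil3 macrophages 26.5 and 18.98 CPM. LPM were at 3.53 and 3.19 CPM, and NK cells had 2 UMIs in each library. Neutrophils had none, which allows up to 48.2 CPM in Cd36-/- and 30.9 CPM in fl/fl, so their level was not detectable at this depth.

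Single cells were compared after each was thinned to 2000 UMIs, which leaves out shallower cells (702 and 616 B cells, 315 and 327 macrophages). At that depth 39.2% and 33.5% of cDC2 had a Ciita UMI, as did 17.6% and 18.3% of Retnla macrophages and 9.42% and 9.18% of B cells. In Retnla macrophages, cells with Ciita had a median of 96 and 99 UMIs of all members, against 73 and 72 in cells without. In B cells the medians were 54 and 51 with Ciita and 52 and 47 without. Folr2 macrophages had medians of 23 and 31 with Ciita and 12 and 8 without, and Chil3 macrophages 29 and 15 with and 10 and 5 without. The medians with and without Ciita thus lay farther apart in these 3 macrophage clusters than in B cells. Both counts come from the same cells, and they are given as a description.

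At least 1 UMI of any member was found in 95.3% (94.8 to 95.7) of Cd36-/- and 93.9% (93.3 to 94.4) of fl/fl macrophages at this depth. NK cells had one in 94.5% and 92.8% of cells, so that share does not tell macrophages from NK cells. Median depths before thinning were 2511 and 2782.5 UMIs in NK cells, against 8163 and 9207 UMIs in macrophages. A limit of at least 10 UMIs of members separated the groups: 3.05% and 3.26% of NK cells passed it, as did 4.16% and 2.49% of LPM, 93.4% and 92.8% of Retnla macrophages and 99.9% of B cells in each library. Among Folr2 macrophages 58.1% (56.2 to 60.1) of Cd36-/- and 47.6% (45.4 to 49.8) of fl/fl cells passed, and among Chil3 macrophages 52.9% (50.4 to 55.4) and 38.1% (35.0 to 41.4). In both of these last clusters the share past the limit was larger in the Cd36-/- library. The limit divides a graded spread of levels, and whether the clusters hold separate kinds of cells was not tested.

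**Figure D3:**
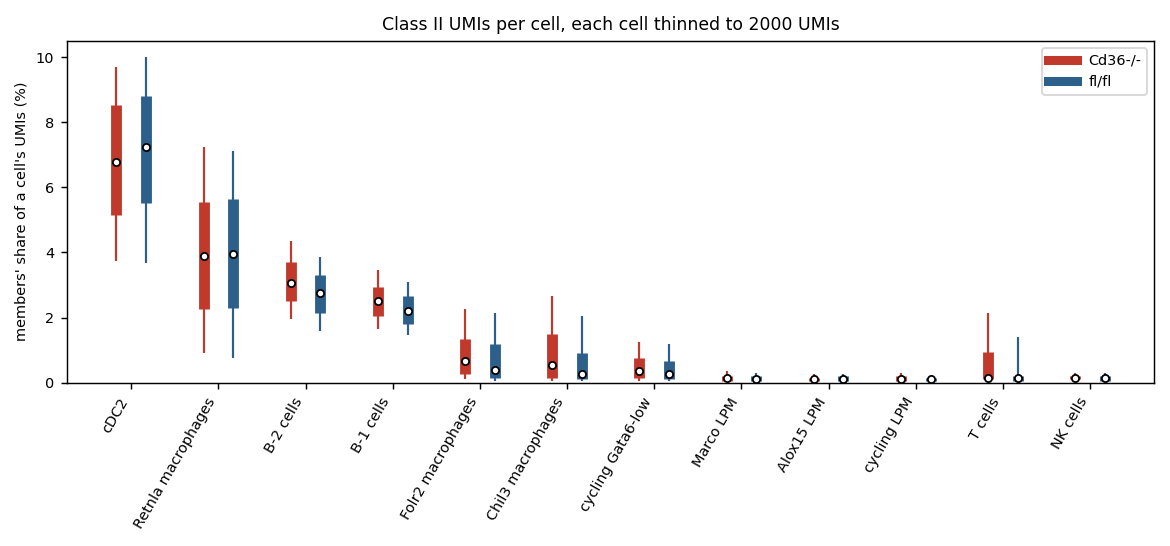
Members' share of each cell's UMIs (%) after thinning to 2000 UMIs, by cell group and library. White points are medians, thick bars the 25th to 75th percentiles, and thin lines the 10th to 90th percentiles. Medians of Folr2 and Chil3 macrophages lie higher in Cd36-/-, those of Retnla macrophages are close, and LPM and NK cells lie near 0.

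The comparison of the libraries asked whether class II RNA differed where macrophages carried the Cd36 deletion. Summed over all macrophages it was nearly level, at 9791 CPM in Cd36-/- and 9518 CPM in fl/fl (log2 ratio 0.04, 0.04 to 0.05). None of the 7 members with at least 20 CPM in 1 library was 1.5-fold apart there, a limit that 0.61% of 4592 genes passed. H2-DMa was the highest by ratio, at 288.7 against 249.5 CPM (0.21, 0.18 to 0.24), and H2-Eb1 the lowest, at 1077 against 1156 CPM (-0.10, -0.12 to -0.09). Cd74 had a ratio of 0.09 and H2-DMb1 one of 0.14, while H2-Aa (-0.02) and H2-Ab1 (0.03) were close to 0.

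This near-level sum hid 2 opposite differences. The Retnla cluster, the macrophages richest in class II, made up a smaller part of macrophage RNA in the Cd36-/- library, at 10.96% against 13.1% of macrophage UMIs, and gave 43.8% against 54.5% of their class II UMIs. In 5 of the other 6 macrophage clusters the summed level was higher in Cd36-/- by its interval. With Retnla macrophages left out, the sum was 6182 CPM in Cd36-/- against 4981 CPM in fl/fl (log2 ratio 0.31, 0.30 to 0.32). With the clusters weighted as in fl/fl, the ratio over all macrophages was 0.13, and the change in cluster mix alone gave -0.11. The share of cells in the Retnla cluster, 11.5% against 14.0% of macrophages, was lower in Cd36-/- under each of 6 other definitions of it, at 4.89% to 34.1% against 7.40% to 41.2%.

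**Figure D4:**
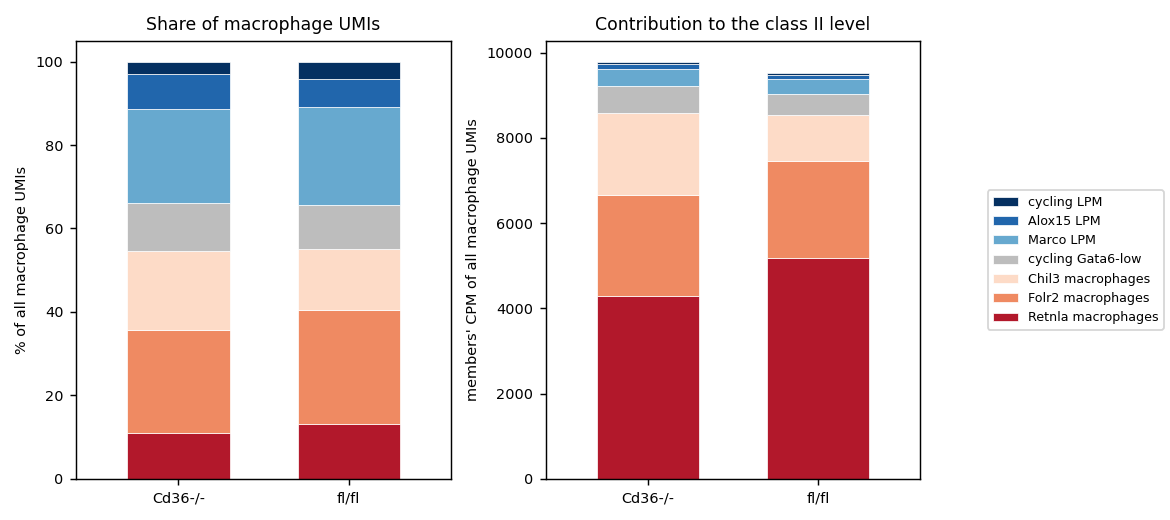
Left, the share of all macrophage UMIs held by each macrophage cluster (%). Right, the contribution of each cluster to the macrophages' class II level (members' CPM of all macrophage UMIs). The Retnla cluster is 10.96% and 13.1% of UMIs but contributes 4287 and 5191 CPM, and the Chil3 cluster contributes 1920 CPM in Cd36-/- against 1073 CPM in fl/fl.

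Chil3 macrophages had the largest difference among the macrophage clusters with over 500 cells in each library. Their class II sum was 10103 CPM in Cd36-/- and 7358 CPM in fl/fl (log2 ratio 0.46, 0.45 to 0.47). All 7 members compared were higher in Cd36-/-, with a median ratio of 0.46 against 0.00 over all 4365 genes compared there, and none passed 1.5-fold (0.962% of genes did). Cd74 was at 5093 against 3566 CPM (0.51, 0.50 to 0.53), H2-Ab1 at 1743 against 1266 CPM (0.46), H2-DMb1 at 155.3 against 106.4 CPM (0.55, 0.44 to 0.65) and Ciita at 26.5 against 18.98 CPM (0.48, 0.24 to 0.73). The cluster itself held 16.3% of Cd36-/- macrophages, with 1588 cells against 928, and its edges matter: the sum's ratio ran from 0.17 with a mitochondrial limit of 5%, or with at least 500 genes per cell, to 0.56 without cells that carry B cell marker UMIs. That last cut left out 332 of the 1588 Cd36-/- and 290 of the 928 fl/fl cells, and 2010 and 2481 of all macrophages. It counts UMIs before thinning, so deeper cells are left out more readily.

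Folr2 macrophages differed in the same direction by less. The sum was 9679 against 8311 CPM (0.22, 0.21 to 0.23), all 7 members compared were higher, and 0 passed 1.5-fold (1.12% of genes did). Their median was 0.28, against -0.02 over all genes. Cd74 was at 4723 against 3877 CPM (0.29), H2-DMa at 313.7 against 248.4 CPM (0.34) and Ciita at 34.9 against 27.6 CPM (0.34, 0.18 to 0.50), whereas H2-Aa (0.16), H2-Ab1 (0.16) and H2-Eb1 (0.10) had smaller ratios. With doublets kept the sum's ratio was 0.03, but for other cells: the cluster of that name then held 5435 and 4318 cells in place of 2565 and 2214, and no cluster was named for Retnla or Chil3. The cycling Gata6-low cluster had a ratio of 0.23 for the sum, with 0 of 6 members past 1.5-fold (0.908% of genes were).

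Retnla macrophages had almost equal class II levels, 39118 CPM in Cd36-/- and 39482 CPM in fl/fl (log2 ratio -0.013, -0.02 to -0.0067). Of 8 members compared, 4 were higher and 4 lower, and 0 passed 1.5-fold (1.21% of genes did). H2-Eb1 was the lowest, at 4761 against 5140 CPM (-0.11), and H2-DMa was at 791.0 against 723.1 CPM (0.13, 0.08 to 0.18). The sign of the sum depended on how the cluster was drawn, from -0.06 with the members among the clustering genes to 0.07 at a finer resolution, so no direction is given for it. At that resolution the name went to only 651 and 721 cells, in place of 1127 and 1079, and these formed a part with 538 and 583 cells and little Retnla (128.6 and 333.5 CPM) and a part with 113 and 138 cells and 14174 and 8477 CPM of Retnla. The sums of the first were 49639 and 47983 CPM, and those of the Retnla-rich part were 51299 and 45244 CPM (0.18), with H2-DMb2 at 130.8 and 81.3 CPM there against 24.8 and 22.0 CPM in the first. Genes of other cell types were also higher in the Retnla-rich part: the B cell gene Cd79a was at 153.0 and 125.5 CPM against 45.2 and 59.1 CPM, and Cd209a, a gene of dendritic cells, at 149.7 and 54.5 CPM against 24.2 and 15.9 CPM. Their part in its H2-DMb2 level was not tested.

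Among LPM, Marco LPM were at 1754 against 1452 CPM for the sum (0.27, 0.25 to 0.30), with 0 of 6 members past 1.5-fold (1.1% of genes were), and Alox15 LPM at 1309 against 1300 CPM (0.01, -0.04 to 0.06), also with 0 of 6 (8.11%). Cycling LPM, with 220 and 232 cells, were at 1870 against 1213 CPM (0.62, 0.56 to 0.69). Of 7 members compared there 4 passed 1.5-fold, all higher in Cd36-/-, beside 3.91% of all genes in either direction and 1.28% higher: H2-Aa (0.60), H2-Ab1 (0.67), H2-Eb1 (0.62) and Cd74 (0.67, 0.58 to 0.77). After thinning, 13 of 212 Cd36-/- and 4 of 226 fl/fl cycling LPM had at least 10 UMIs of members. How much of the difference came from these few cells was not tested. The members' share of a cell's UMIs had a median of 0.1% in both libraries. Its upper quartile was 0.2% in Cd36-/- and 0.15% in fl/fl cycling LPM. In CPM the LPM levels lay near or below that of NK cells. The NK sum had a ratio of 0.03 (-0.06 to 0.12), with 0 of 8 members past 1.5-fold (12.3%). Without cells with 2 or more UMIs of B cell markers, cycling LPM had 1833 and 1043 CPM, beside 1455 and 1363 CPM in NK cells. That cut left out 44 and 102 cycling LPM. Their ratio was then 0.81 (0.73 to 0.90), and H2-DMb1 (0.63) passed 1.5-fold besides the 4 members. The share over all genes was not computed for that cut.

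**Figure D5:**
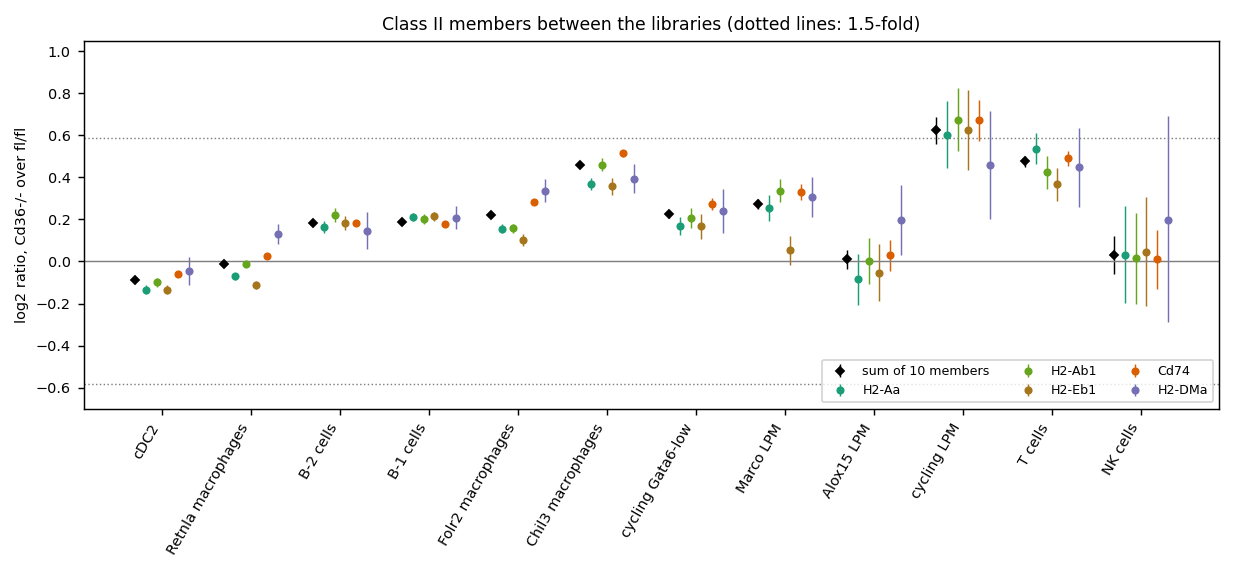
Log2 ratio of the libraries (Cd36-/- over fl/fl) for the sum of the members and for 5 of them in 12 cell groups, with exact 95% intervals of counting and dotted lines at 1.5-fold. Most groups lie above 0, cDC2 lie below, and Retnla macrophages and NK cells lie near 0.

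B cells, a lineage outside the usual reach of LysM-Cre, also had slightly more class II RNA in the Cd36-/- library. The sum was 26413 against 23223 CPM (log2 ratio 0.19, 0.18 to 0.19), 9 of 10 members were higher, the median was 0.19 against 0.02 over all genes, and 0 passed 1.5-fold (1.18% of genes did). H2-Oa had the highest ratio, at 183.0 against 135.9 CPM (0.43, 0.35 to 0.51). Ciita was the exception, at 47.3 against 50.8 CPM (-0.10, -0.24 to 0.04), and in B-2 cells its ratio was -0.29 (-0.56 to -0.02).

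B-1 cells had a sum of 25394 against 22268 CPM (0.19), with 0 of 10 members past 1.5-fold (1.59% of genes were), and B-2 cells one of 31097 against 27411 CPM (0.18), with 0 of 10 (2.09%). The median cell had 2.5% of its UMIs from members in Cd36-/- and 2.2% in fl/fl B-1 cells, and 3.05% and 2.75% in B-2 cells, the latter after 679 and 606 shallower cells were left out. Summed ratios of about this size were found in Folr2 macrophages (0.22) and in B cells, and a difference between the pools or libraries as a whole cannot be told apart from one of genotype.

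cDC2 went the other way. Their sum was 64595 against 68686 CPM (log2 ratio -0.09, -0.10 to -0.08), 8 of 10 members were lower in Cd36-/-, and 0 passed 1.5-fold (3.64% of genes did). H2-Aa had a ratio of -0.13 (-0.15 to -0.11), H2-Eb1 one of -0.13 and Ciita one of -0.14 (-0.29 to 0.01), and H2-Oa (0.13, -0.0028 to 0.26) and H2-Ob (0.09) were the members on the other side. Without cells that carried B cell marker UMIs, H2-Oa had a ratio of -0.08 and the sum one of -0.11. cDC1, with only 38 and 34 cells, had 55820 and 56036 CPM. Without the 5 and 12 of them that had 2 or more UMIs of B cell markers, they had 55658 and 61056 CPM (-0.13, -0.16 to -0.10).

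T cells and neutrophils gave the remaining members past the limit. T cells had 8584 against 6168 CPM of the sum (0.48, 0.45 to 0.50), and 2 of 9 members passed 1.5-fold (3.31% of genes did): H2-DMb2, at 198.0 against 126.7 CPM (0.65), and H2-Oa, at 68.6 against 37.7 CPM (0.86). Summed B cell markers were also higher in this cluster, at 1938 against 1491 CPM. Without the 234 and 154 cells that had 2 or more UMIs of B cell markers, the T cell sum fell to 1342 and 1227 CPM, below the 1455 and 1363 CPM of NK cells treated alike. H2-Oa then had a ratio of 0.04. H2-DMb2, at 17.04 against 12.1 CPM, had one of 0.49 (-0.35 to 1.36), and both members were under the minimum of 20 CPM for a comparison. Neutrophils, with 100 and 131 cells of low depth, had 2 of 8 members past 1.5-fold, where 61.7% of all genes were.

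Counted over the 13 groups, the interval of the summed ratio lay above 0 in 9, below 0 in 2 (Retnla macrophages and cDC2) and held 0 in 2 (Alox15 LPM and NK cells). Without cells with 2 or more UMIs of B cell markers, the counts were 10, 2 and 1, with Retnla macrophages above 0 and Alox15 LPM below it (-0.12). H2-DMb2, at 14.8 against 17.4 CPM (-0.24), and H2-Ob, at 10.6 against 11.7 CPM (-0.15), were lower in Cd36-/- macrophages while the other H2-DM chains were higher. Summed B cell markers were lower as well in each macrophage cluster, at 95.8 to 157.3 CPM in Cd36-/- against 122.2 to 183.1 CPM in fl/fl, and B cells held 19.7% of Cd36-/- and 30.6% of fl/fl cells. Without the cells with 2 or more UMIs of B cell markers, the ratios in macrophages were -0.31 for H2-DMb2 and -0.21 for H2-Ob, at 11.9 against 14.7 CPM and 8.79 against 10.2 CPM. H2-Oa, at 4.27 against 3.56 CPM (0.26) in all macrophages, turned to -0.0686 (-0.39 to 0.26) without them, so its direction rested on those cells.

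Other genes of the pathway were taken from lists drawn up for this work, and ratios are those in macrophages. Of the interferon-gamma path to Ciita, 1 of 6 genes compared passed 1.5-fold, as did 0.61% of all genes in macrophages: Irf1, a transcription factor that acts on the Ciita promoter, at 44.5 against 25.8 CPM (0.78, 0.70 to 0.86). Irf8 (0.56), a transcription factor of the same family, was higher as well. Of the 6 genes, 4 had ratios above 0 and 2 below. In Alox15 LPM, 2 of the 6 genes had ratios above 0 and 4 below, with Irf1 at 20.1 against 20.4 CPM. Ciita itself had a ratio of 0.07 (-0.02 to 0.16) over all macrophages, or 0.34 (0.22 to 0.46) without the Retnla cluster.

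All 8 compared genes of the class I path, which presents cytosolic peptides, were higher in Cd36-/- macrophages and 0 passed 1.5-fold (0.61% of all genes did), with a median ratio of 0.24 beside 0.07 for the members and -0.01 over all genes. Alox15 LPM went the other way, with 2 of 7 above 0, 5 below and a median of -0.0544. Over all macrophages, the highest class I genes were the immunoproteasome subunit Psmb9 (0.42), the peptide transporter Tap1 (0.38) and the light chain B2m (0.34). The processing enzymes differed less, with a median of 0.03 over 6 genes (4 above 0 and 2 below) and the highest ratio for Lgmn, an endosomal protease (0.10). Of 2 promoter factors compared, Rfxap, a subunit of the X box factor RFX, had a ratio of 0.19 and Creb1 one of -0.10. March1, a ubiquitin ligase that sends surface class II to degradation, was lower, at 18.8 against 23.7 CPM (-0.33, -0.43 to -0.23). Cd40, a costimulatory receptor, had a ratio of 0.28 and Cd86 one of 0.10.

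The genes whose level across the 13 groups was most like that of H2-Aa, H2-Ab1, H2-Eb1 and Cd74 were Plekho1 (mean Pearson r of both libraries 0.92), Map4k1 (0.88), Rnase6 (0.86) and Susd3 (0.82), then Rps9, Gm15987, Napsa, Arhgap17, Ryr1 and Plac8 at 0.77 to 0.80. Plekho1 was at 161.7 CPM in cDC2, 120.9 CPM in Retnla macrophages, 61.4 CPM in B-2 cells and 9.89 CPM in Marco LPM of the fl/fl library. H2-Ob was most like B cell genes, with Siglecg (0.99), Iglc3 (0.98), Fcrla, Ly6d and Mzb1 (each 0.97). Ciita was most like Gm15987 (0.92), Susd3 (0.91), Cd2ap, Osgep and Plekho1 (0.88 to 0.89). The 13 points share 2 libraries and include related clusters, so these values only describe which patterns look alike.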

How the data were processed

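Peritoneal cells were sequenced with the single cell 3′ v2 protocol of 10x Genomics, per the labels' protocols, as 1 library per genotype. The values that the authors deposited are raw UMI counts per gene and barcode. Per the file headers they come from software of version 3.0.0. The submitters' processing notes name Cell Ranger and mm10, and the annotation release and strand setting are not given in the sources used here. The libraries held 16543 barcodes with 116600732 UMIs (Cd36-/-) and 15537 with 117238057 (fl/fl).

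Barcodes had to hold at least 200 genes (36 and 38 did not) and at most 10% mitochondrial UMIs (507 and 766 had more), and Scrublet in scanpy 1.11.5 removed 1101 (6.88%) and 887 (6.02%) doublets. Clusters (Leiden, resolution 1, 40 components, 2000 variable genes, 20 neighbours, leidenalg 0.10.2) gave 18 groups, of which 1 with red cell and pancreatic genes stayed unnamed. Counts were summed per library and group. CPM have exact Poisson, ratios exact conditional binomial and shares exact Clopper-Pearson intervals at 95%, for counting error only. Genes with at least 20 CPM in 1 library were compared, and 1.5-fold describes size in place of a test. On simulated counts with counting error only, 100% of genes with a 2-fold change passed it for macrophages (4466 genes) and 97.5% for cDC2 (4245 genes). Differences between pools or libraries were not simulated. All members were named in every group with at least 50 cells per library. Then came the most similar genes and at most 3 pathway genes per list, from those with the largest ratios in macrophages. cDC1 (under 50 cells), marker genes and the parts of the Retnla cluster were named after their values were seen. Of the gene IDs, 30934 matched GENCODE M21, used for positions and 3′ ends. The members and lists were chosen with earlier results of these data known.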

Additional observations from a re-analysis of the deposited data

Results flagged for a closer look

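2 cell groups had a lower summed level of the 10 members in the Cd36-/- library while 9 of the 13 groups had a higher one. cDC2 had a log2 ratio of -0.0886 (-0.10 to -0.08), and it stayed below 0 under each alternative run for it, at -0.124 to -0.0603. Retnla macrophages had a ratio of -0.0133 (-0.02 to -0.00668), and its sign changed with the clustering. Whether either group differs from the others was not tested, since each library is 1 pool and the intervals cover counting error only.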

How the results depend on the processing

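No paired analysis was possible because each group is 1 library, and for the same reason no library could be left out. The summed log2 ratio in macrophages (0.04) was 0.0668 with a mitochondrial limit of 20%, 0.0467 at resolution 2, 0.0503 with members among the clustering genes, 0.0499 with median-ratio scaling, 0.0182 with a total that leaves out mitochondrial, ribosomal protein, immunoglobulin and member genes (the reduced total), 0.0226 without cells with B cell marker UMIs, 0.13 with fl/fl cluster weights and 0.31 without the Retnla cluster. In Retnla macrophages (-0.01) it was 0.0291 with a mitochondrial limit of 5%, 0.0662 with at least 500 genes, 0.0714 at resolution 2, -0.0550 with members among the clustering genes, -0.0368 with the reduced total, 0.0248 with a gate on marker UMIs in each cell and 0.0121 without cells with B cell marker UMIs. With doublets kept no cluster took that name, or that of the Chil3 macrophages, by majority, and no value was obtained. In B cells (0.19) it was 0.17 with median-ratio scaling, 0.16 with the reduced total and 0.17 with the gate. In cDC2 (-0.09) it was -0.0685 with a mitochondrial limit of 20%, -0.12 with doublets kept, -0.12 with median-ratio scaling and with the reduced total, -0.0603 with the gate and -0.11 without cells with B cell marker UMIs. Alternatives for single macrophage clusters, T and B subsets and those on cells with B cell marker UMIs were added after seeing the data. Members past the size limit numbered 8 of 102 comparisons in 13 groups. The share of all genes past it ran from 0.908% in the cycling Gata6-low cluster to 61.7% in neutrophils. No share of all genes pooled over the 13 groups was computed, so the pooled count of members is not read as a result about them. At 2-fold the members past the limit numbered 2, both in neutrophils, where 37.8% of all genes passed 2-fold. Without cells with B cell marker UMIs, Cd74 in Chil3 macrophages (0.63), H2-DMb1 in cycling LPM (0.63) and H2-Ab1 in neutrophils (0.67) passed 1.5-fold as well. Both T cell members and H2-DMb2 in neutrophils (0.58) then did not, and shares over all genes were not computed for that cut. Macrophages with at least 1 UMI of any member were 99.8% in each library without thinning, and 99.4% and 99.0% at 4000 UMIs. Of 250 single-member values under alternatives whose ratio was at least 0.1 either way, 237 kept their sign. The others were H2-Oa in macrophages, Retnla macrophages and cDC2, H2-DMb2 in Retnla macrophages, and H2-Eb1 in macrophages and Retnla macrophages. The cause was not tested. H2-Oa, H2-Ob and Ciita in LPM and neutrophils are limited by depth, with few UMIs each.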
